A study of Homo sapiens with 8 samples.

Results

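HABP4 and TTC33, a pair of genes whose signal was higher after RND3 knockdown, were followed across the arrays of this series together with INMT. On 1 of its 2 probes, the signal of INMT was higher at 48 h than at 24 h in control cells and lower after knockdown. The 3 genes are described below. They make up 3 of the 19483 genes named on the array. All were chosen on measured values. HABP4 and TTC33 ranked 2 and 5 by rise at 24 h among 1031 named genes that passed the threshold, passed the background limit on every 24 h array and had groups that did not overlap. INMT was chosen for its opposite behaviour with time and with knockdown. The other ranks up to that of TTC33 were held by genes not described here. For these reasons the differences of the members at both times and the changes of INMT are given as a description, without a test. The last member inside the first rule, TTC33, differed by 1.56 on the log2 scale, and the next genes outside it were ZNF805 with 1.53, TNRC6C with 1.51 and PCNX3 with 1.42.

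The samples were U87 cells, a human glioblastoma line, transfected with siRNA against RND3 (siRND3, RhoE knockdown) or with a non-silencing siRNA (siControl), both by reverse transfection with a lipid reagent. There were 3 siControl and 3 siRND3 arrays at 24 h, and 1 array of each treatment at 48 h. Whether replicates were separate transfections is not given in the labels, so p-values measure the spread between these arrays, which may be technical. The methods name a pair of siRNAs without saying which array received which, so the effect of a single siRNA could not be separated. All 8 arrays lay on 1 slide, with siRND3 in row 1 and siControl in row 2, and with both 48 h arrays in column 4. Slide row and treatment, and slide column and time, cannot be told apart.

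Each array had 68.3% to 70.7% of its 42405 probes well above background, and arrays of a group correlated across probes at r of at least 0.991. The targeted gene, RND3, had a log2 level of 11.90 ± 0.01 in siControl and 10.24 ± 0.16 in siRND3 cells at 24 h (SD, n = 3 each), which is 31.7% of control. At 48 h it read 11.48 and 9.84. Of the markers checked, VIM, CD44, CHI3L1 and FN1 were well above background on all 8 arrays, as was the neural progenitor gene NES. OLIG2 was so on 7 arrays and S100B on 1, whereas GFAP and SOX2 were so on none. Of the neuronal genes SNAP25 and SYT1 were above background on all 8 arrays and RBFOX3 on none. Probes for endothelial and leukocyte genes such as CDH5 and CD14 were also above background on all 8 arrays, but they were dim. Their mean signal in siControl cells at 24 h was 141 and 85.8 scanner units, against 57716 for CD44. Probes of PECAM1 were above background on 3 to 8 arrays and those of PTPRC on 0 to 8. Of the epithelial genes EPCAM and KRT18 were above background on all 8 arrays and CDH1 on none. The part of other cell types in the results was not tested. In bulk RNA, fewer cells that express a gene and less of its RNA per cell cannot be told apart.

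HABP4 (hyaluronan binding protein 4, also known as Ki-1/57) is an intracellular protein that binds RNA and hyaluronan and is related to the ribosome-associated protein SERBP1. TTC33 holds tetratricopeptide repeats, short helical units through which many proteins bind one another, and its own function is little known. INMT (indolethylamine N-methyltransferase) moves a methyl group from S-adenosylmethionine, the general methyl donor of the cell, to tryptamine and related small amines. These roles lie in different pathways, and each is set below beside the genes that work with it.

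The stretches of DNA just upstream of the 3 genes are shown because the members differ in base composition there. They are the bases of the RefSeq promoter table (GRCh38.p14) that lie before the start of the gene model, written 5′ to 3′ on the strand of the gene. HABP4 lies on chromosome 9 from 96450102 to 96491336 (plus strand), TTC33 on chromosome 5 from 40711576 to 40755961 (minus strand) and INMT on chromosome 7 from 30752135 to 30757602 (plus strand). Capitals mark GGGCGG (the GC box), CCAAT (the box of that name), TGACGT (the core of a cAMP response element) and, as the longest run of capitals for TTC33, an element that starts with ACTACA and ends, after any 2 bases, with TCCCA, each searched on both strands. A GC box on the other strand reads CCGCCC. The letters CCAAT on the other strand read ATTGG. The motifs were chosen after the sequences had been read.
HABP4, chr9:96449919-96450101, 183 bases: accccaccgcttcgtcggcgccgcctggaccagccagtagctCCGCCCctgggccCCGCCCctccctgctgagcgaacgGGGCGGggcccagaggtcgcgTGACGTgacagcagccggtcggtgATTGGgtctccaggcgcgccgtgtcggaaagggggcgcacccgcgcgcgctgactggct
TTC33, chr5:40755962-40756211, 250 bases: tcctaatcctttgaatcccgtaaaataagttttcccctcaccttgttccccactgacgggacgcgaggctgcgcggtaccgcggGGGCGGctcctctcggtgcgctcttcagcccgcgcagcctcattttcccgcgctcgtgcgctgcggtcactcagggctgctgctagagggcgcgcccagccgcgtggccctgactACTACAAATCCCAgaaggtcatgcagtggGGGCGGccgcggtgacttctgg
INMT, chr7:30751885-30752134, 250 bases: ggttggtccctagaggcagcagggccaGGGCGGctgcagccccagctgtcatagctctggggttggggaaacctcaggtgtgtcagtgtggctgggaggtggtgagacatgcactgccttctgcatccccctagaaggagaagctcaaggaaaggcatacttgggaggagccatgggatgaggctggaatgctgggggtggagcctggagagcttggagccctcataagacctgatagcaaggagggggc

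The HABP4 stretch was 74.9% G and C and held 24 CpG pairs, and 92.0% of all 35116 promoters held fewer in a window of the same length. For this and the shares below, the window was the first bases of each promoter in the table. It need not end at the start of the gene, so positions may differ from those of the members. The TTC33 stretch was 64.4% G and C with 25 CpG pairs, more than 78.4% of promoters. INMT differed from both, with 60.8% G and C but a single CpG, and only 6.06% of promoters held fewer. GC boxes were found 3 times for HABP4, 2 times for TTC33 and 1 time for INMT. Of all promoters, 31.8% held one in 183 bases and 42.6% in 250 bases. The HABP4 stretch also held CCAAT, found in 24.5% of promoters at that length, and TGACGT, found in 4.04%. The element that starts with ACTACA occurred in the TTC33 stretch and in 1.27% of promoters at that length. The letters TATAAA were in none of the 3 stretches. A match is a description of the letters and not evidence of a bound factor. The start of INMT is shared with INMT-MINDY4, a read-through transcript annotated from 30752135 to 30892387.

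HABP4 was represented by 1 probe, A_33_P3592015, annotated to transcript NM_014282 and printed as 2 spots. On every array it was well above background. At 24 h its quantile-normalised log2 signal was 9.27, 9.29 and 9.35 in the siControl replicates 1 to 3, and 11.30, 11.39 and 11.25 in the siRND3 replicates 1 to 3. The groups did not overlap, and the lowest siRND3 array stood well above the highest siControl array. Among all probes 20.3% had every siRND3 array above every siControl array, but the rule used this contrast and nothing is read from that share. The means were 9.30 ± 0.04 and 11.31 ± 0.07 (SD, n = 3 each), a difference of 2.01 or 4.03-fold, with HABP4 at rank 10 of 28759 probes by rise.

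At 48 h, when the arrays did not enter the ranking above, the siControl array read 8.43 and the siRND3 array 11.48. The difference was 3.05 on the log2 scale, or 8.28-fold. HABP4 was at rank 2 of all probes by rise at 48 h. HABP4 and TTC33 were chosen with values at both times known, so their differences at 48 h are no independent support for a rise and were not tested. Each treatment had a single array at 48 h. For other genes tested at that time, the fit assumes that it varies as the arrays at 24 h do. Over the alternatives the difference of HABP4 lay between 2.79 and 3.05. Leaving out a 24 h array or changing the filter cannot alter this difference, so only other ways of preparing the values could move it. In the limma model with 4 groups, 9.77% of all probes tested were called higher at 48 h, 9.19% lower and 19% either way.

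The wider gap at 48 h came with a lower siControl value. The siControl array at 48 h differed by -0.87 from the mean of the siControl arrays at 24 h, and by -0.92 to -0.84 from each of them. The siRND3 array lay 0.16 above its 24 h mean, and 0.09 above the highest array. The order of the levels was thus siControl at 48 h, siControl at 24 h, siRND3 at 24 h and siRND3 at 48 h. These changes with time rest on 1 array per treatment and were not tested. The scanner signal of HABP4 ran from 345 units on the siControl array at 48 h to 2878 on the siRND3 array, far over the local background of 26.5 to 36.5 units. Both spots of the probe gave similar values on every array, for example 722 and 750 units on the siControl replicate 3.

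**Figure D1:**
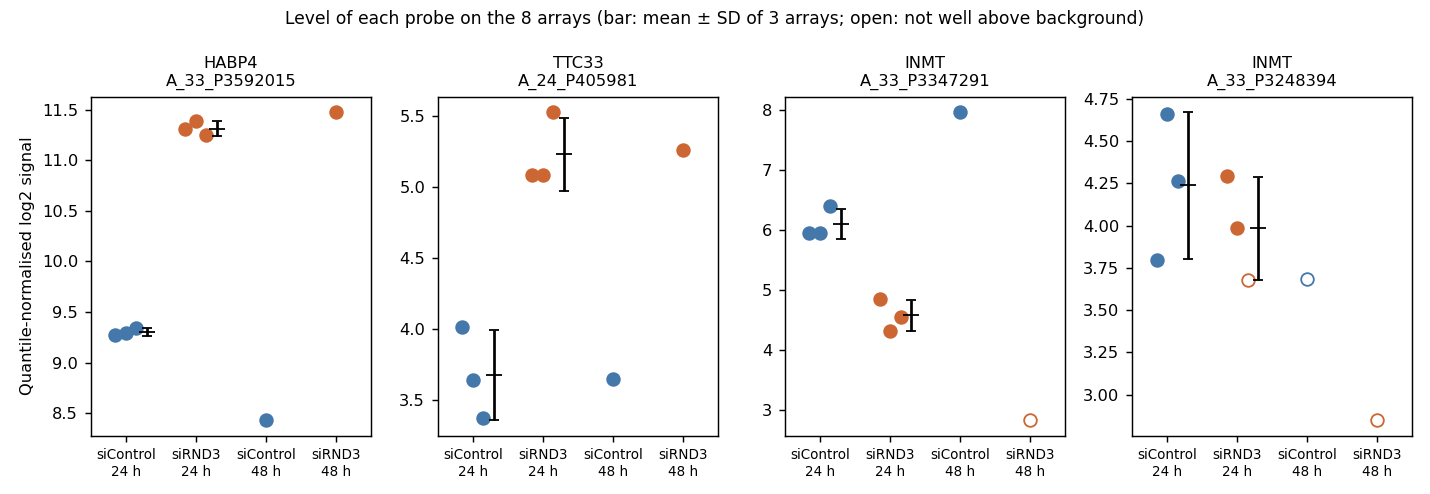
Quantile-normalised log2 signal (y axis) of the HABP4, TTC33 and INMT probes on each of the 8 arrays, by treatment and time (x axis), each panel with its own scale. Filled points are arrays on which the probe was well above background, open points are arrays on which it was not, and black bars are the mean ± SD of 3 arrays. HABP4 and TTC33 are higher in siRND3 at both times, and the INMT probe A_33_P3347291 spans 2.83 to 7.97, with its highest value in siControl and its lowest in siRND3 at 48 h.

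TTC33 was also represented by 1 probe, A_24_P405981, annotated to NM_012382 and printed as 1 spot. The probe was dim but was marked well above background on every array. At 24 h its log2 signal was 4.01, 3.64 and 3.37 in the siControl replicates 1 to 3, and 5.08, 5.08 and 5.53 in the siRND3 replicates 1 to 3. All siRND3 arrays lay above all siControl arrays. The means were 3.67 ± 0.32 and 5.23 ± 0.26 (SD, n = 3 each), a difference of 1.56 or 2.94-fold.

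At 48 h the siControl array read 3.64 and the siRND3 array 5.26. The difference was 1.62, or 3.07-fold, and like that of HABP4 it was not tested. Over all alternatives this difference lay between 0.42 and 1.62. The level of TTC33 was almost the same at both times. The siControl array at 48 h differed by -0.03 from its 24 h mean and the siRND3 array by 0.03, both within the spread of the arrays at 24 h. In the order of the levels, neither pair of neighbouring times differed beyond its spread.

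The size of the TTC33 difference depended on how background was handled. The processed signal, from which the scanner software had removed background, was 16.6 ± 2.91, 11.3 ± 2.50 and 10.8 ± 2.39 units on the siControl arrays at 24 h (signal ± scanner error). It was 32.2 ± 4.01, 33.7 ± 4.0 and 43.7 ± 4.89 units on the siRND3 arrays. At 48 h it was 13.4 ± 2.88 and 40.2 ± 4.88 units. Before any subtraction the median signal of the spot was only 1.21 to 1.73 times its local background on siControl arrays and 1.93 to 2.70 times on siRND3 arrays. With normexp correction, which adds the same offset to every signal, the difference was 0.42 at 24 h and 0.42 at 48 h. In the deposited log2 values, which had no background removed, it was 0.67 and 0.70. The direction was the same each time.

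**Figure D2:**
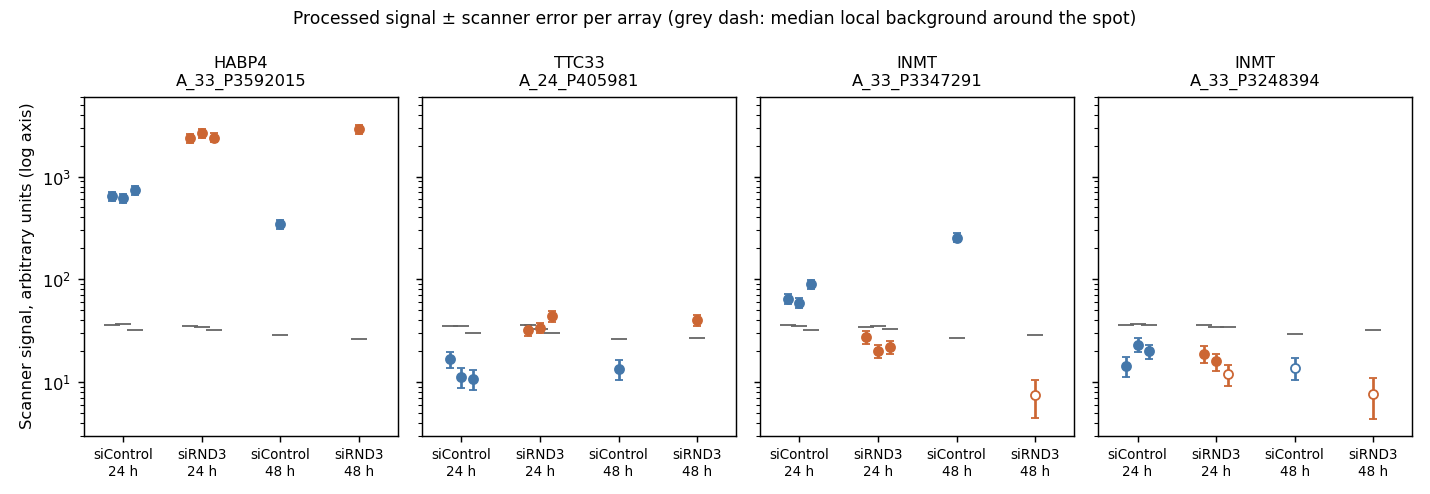
Processed scanner signal in arbitrary units on a log axis (y axis) of the same probes on each array, by treatment and time (x axis), with the scanner's own error as bars and the median local background around the spot as a grey dash. HABP4 lies far above the dash on every array, whereas the TTC33 signal of 10.8 to 43.7 units lies on both sides of it. Both INMT signals in siRND3 cells lie below it, as do those of the dimmer INMT probe in siControl cells. Background had already been removed from the plotted signal, so a point under the dash is dim but not thereby below background.

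INMT was represented by 2 probes, both annotated to NM_001199219 and each printed as 1 spot. On the brighter of the pair, A_33_P3347291, the log2 signal at 24 h was 5.95, 5.95 and 6.39 in the siControl replicates 1 to 3, and 4.85, 4.32 and 4.55 in the siRND3 replicates 1 to 3. The groups did not overlap, and every array was well above background. Over all probes 14% had every siRND3 array below every siControl array. The means were 6.10 ± 0.25 and 4.57 ± 0.26 (SD, n = 3 each), a difference of -1.53, so that siRND3 cells read 34.7% of control. At this time INMT was at rank 159 of 28759 probes by fall.

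At 48 h the gap was far wider. The siControl array read 7.97, which is 1.87 or 3.65-fold above its 24 h mean and 1.57 to 2.01 above the single arrays. The siRND3 array read 2.83 and was not well above background. With this value as read, INMT was 35.3-fold lower in siRND3 than in siControl cells at 48 h. In siRND3 cells it was 3.36-fold lower at 48 h than at 24 h. Since the dim value was not well above background, neither fold is a measured size or a lower bound. The dim value stood above the lowest log2 signal still marked well above background on that array (2.54). Both folds were smaller with normexp correction and in the deposited values, given below. By the size of its change with time in siControl cells this probe was at rank 16 of all probes.

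In scanner units the signal of this probe was 64.9, 59.1 and 89.9 on the siControl arrays at 24 h, 27.5, 20.03 and 21.9 on the siRND3 arrays, 254 on the siControl array at 48 h and 7.49 on the siRND3 array. The brightest array thus stood clear of background, while all siRND3 values were dim. With normexp correction the difference was -0.55 at 24 h and -2.13 at 48 h, with changes over time of 1.24 in siControl and -0.33 in siRND3 cells. In the deposited log2 values these were -0.79, -2.85, 1.51 and -0.54. Every direction was the same under these settings.

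The other INMT probe, A_33_P3248394, did not show this pattern. At 24 h it read 3.79, 4.66 and 4.26 in the siControl replicates and 4.29, 3.98 and 3.68 in the siRND3 replicates, the last of them not well above background. The groups overlapped, and the means of 4.24 ± 0.43 and 3.98 ± 0.31 differed by -0.25. At 48 h it read 3.68 in siControl and 2.85 in siRND3 cells, neither well above background, so no fold is given there. Its siControl value at 48 h differed by -0.56 from its 24 h mean, opposite in sign to the change of 1.87 on the brighter probe. Both probes carry the same transcript name, and their own sequences were not used here, so the part of the transcript that each reads cannot be given.

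**Figure D3:**
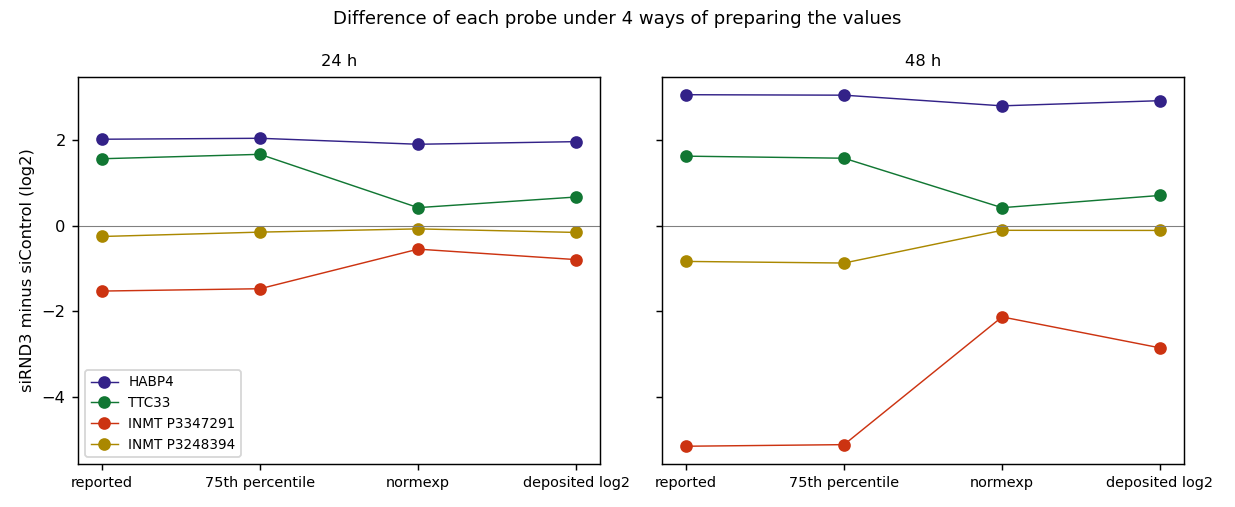
Difference of siRND3 minus siControl in log2 units (y axis) for the HABP4, TTC33 and INMT probes at 24 h and 48 h, under 4 ways of preparing the values (x axis). HABP4 stays near its reported 2.01 and 3.05, while TTC33 and the INMT probe A_33_P3347291 lie closer to 0 with normexp correction and in the deposited values, at 0.42 and -0.55 at 24 h with normexp.

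A change of at least 1 in siControl and of at most -1 in siRND3 cells was found for 8 of 28759 probes (0.0278%), in 7 genes, and the reverse for 5 probes (0.0174%). Taken alone, 0.768% of probes rose by at least 1 in siControl cells and 2.62% fell by at least 1 in siRND3 cells. These changes set 1 array at 48 h against the mean of 3 and were not tested. At 48 h only 3 of these 8 were well above background in both treatments. With normexp correction, and also in the deposited values, 2 probes met these limits in the direction of INMT and 0 in the other. The count in the direction of INMT was 15 without siRND3 replicate 1 and 67 without the filter on dim probes. In the other direction it was 9 without siControl replicate 2, 10 without siRND3 replicate 3 and 59 without the filter.

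The other 6 genes in the direction of INMT were CSF2, IL1B, CSF3, BIRC3, WNT7B and LAMB2P1. CSF2, which encodes the growth factor GM-CSF, was 2.15 higher at 48 h than at 24 h in siControl cells, and its siRND3 array at 48 h was not well above background. IL1B, a cytokine, changed by 1.29 in siControl and by -1.37 in siRND3 cells. CSF3, which encodes the growth factor G-CSF, changed by 1.28 and -1.48 on one probe and by 1.35 and -1.26 on the other. BIRC3, an inhibitor of apoptosis, changed by 1.12 in siControl cells and was not well above background in siRND3 cells at 48 h. CSF3 and IL1B were the members of this group measured on both arrays at 48 h.

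**Figure D4:**
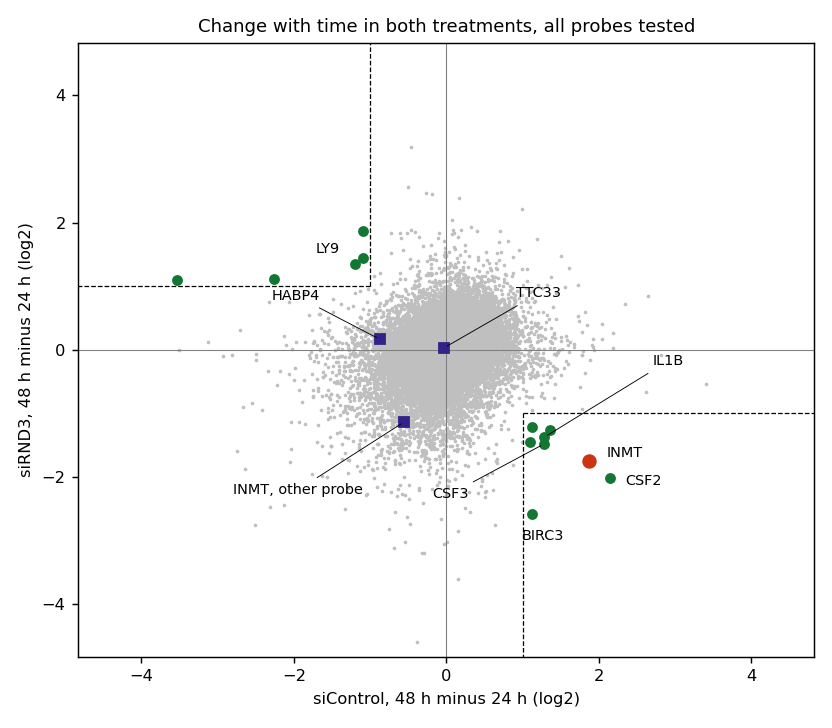
Change from 24 h to 48 h in log2 units in siControl (x axis) and siRND3 cells (y axis), with 1 grey point per probe tested. Dashed lines bound changes of at least 1 in opposite directions, green points are the probes inside these bounds other than INMT, the red point is the INMT probe A_33_P3347291 at 1.87 and -1.75, and squares are the other probes of the chosen genes; siRND3 values at 48 h that were not well above background are drawn as measured.

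The genes on either side of each member were compared to see whether the difference at 24 h extended along the chromosome. HABP4 had a neighbour that rose with it. ZNF367, a zinc finger gene next to it in the RefSeq order, rose by 0.86 ± 0.08 (SE; adjusted p = 0.00184, limma) on one probe and by 0.78 ± 0.14 (adjusted p = 0.0185) on the other, and by 1.27 and 1.24 at 48 h (adjusted p 0.00207 and 0.0158). Over all probes 5.27% were called higher and 6.38% lower at 24 h. The other neighbours of HABP4, SLC35D2, CDC14B, PRXL2C and MKRN10P, did not pass the threshold at 24 h, with differences from -0.41 to 0.25, and HSD17B3 was too dim to be tested. The second ZNF367 probe was lost in 6 of 16 alternatives, among them those without siControl replicate 1, 2 or 3 or siRND3 replicate 3 (adjusted p up to 0.0720) and without the filter on dim probes.

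The neighbours of TTC33 fell or did not pass the threshold, while TTC33 itself was higher. CARD6, which encodes a protein with a caspase recruitment domain, fell by 1.08 ± 0.07 (SE; adjusted p = 0.000494, limma) on one probe and fell by 0.82 ± 0.16 (adjusted p = 0.0243) on the other. DAB2, an adaptor of endocytosis, fell by 0.67 (adjusted p = 0.00350). PTGER4, a receptor of prostaglandin E, fell by 0.33 (adjusted p = 0.0451). PRKAA1, a catalytic subunit of AMP-activated kinase, and the ribosomal protein gene RPL37 differed by -0.02 to 0.25 and did not pass, and C9 was too dim to be tested. The PTGER4 call was lost in 8 of 16 alternatives, among them those without siControl replicate 1, 2 or 3 or siRND3 replicate 2 or 3 (adjusted p up to 0.145), and that of the second CARD6 probe without siControl replicate 2 or 3 or siRND3 replicate 2 (up to 0.0890) and without the filter on dim probes.

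Next to INMT, MINDY4, which shares the read-through transcript with it, differed by 0.10 and -0.18 on its 2 probes and did not pass the threshold. AQP1, a water channel, fell by 0.67 ± 0.12 (SE; adjusted p = 0.0165, limma) on probe A_23_P372834, with a difference of -2.08 at 48 h (adjusted p = 0.00132), whereas its other probe differed by 0.14 at 24 h (adjusted p = 0.519). The effect on that AQP1 probe was larger at 48 h than at 24 h (difference -1.41, adjusted p = 0.0384), a test that 2.73% of all probes passed. GGCT, GARS1 and CRHR2 did not pass, with differences from -0.19 to 0.45, and GHRHR was too dim to be tested at 24 h. Of the 8 neighbour probes tested for each member, 2 were higher and 0 lower for HABP4, 0 and 4 for TTC33, and 0 and 1 for INMT. Over all probes 5.27% were called higher and 6.38% lower. Both for HABP4 were probes of ZNF367, and 2 of the 4 for TTC33 were probes of CARD6. Over the alternatives the neighbours of all members together gave 1 to 3 probes higher and 2 to 6 lower. The AQP1 call was lost without siControl replicate 1, 2 or 3 (adjusted p up to 0.0685).

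**Figure D5:**
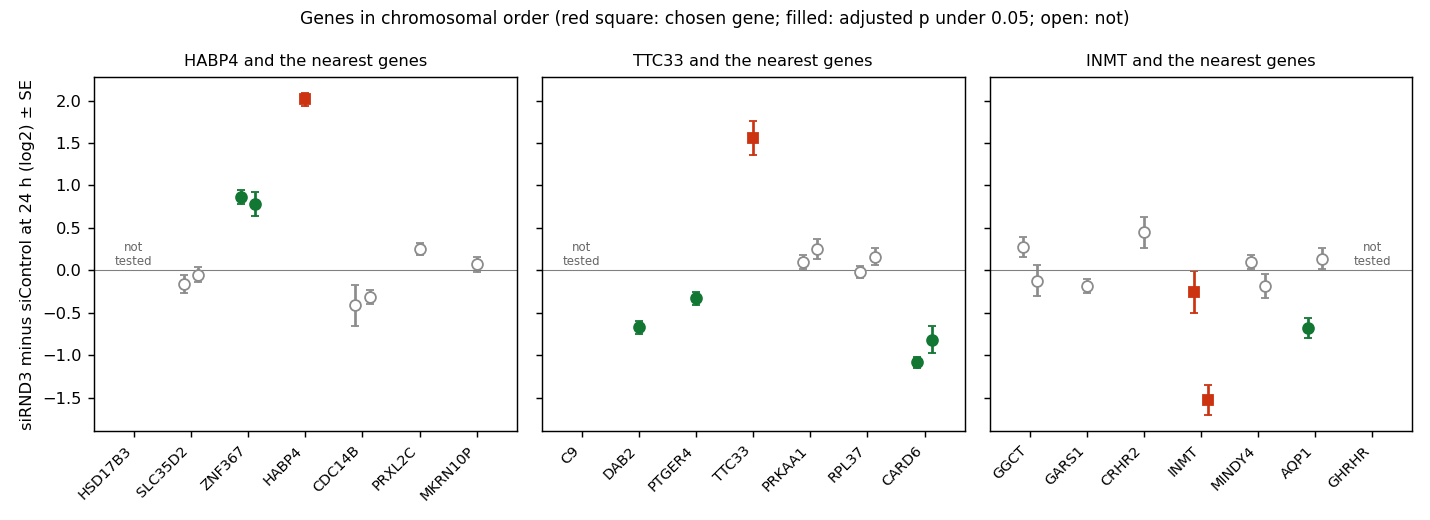
Difference of siRND3 minus siControl at 24 h in log2 units ± SE (y axis) for each probe of the chosen gene (red squares) and of the nearest genes on both sides in RefSeq order (x axis). Filled green circles passed the threshold and open grey circles did not; ZNF367 lies above 0 beside HABP4, while CARD6, DAB2 and PTGER4 lie below 0 beside TTC33, and AQP1 has 1 filled and 1 open point.

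Proteins that bind HABP4 or are related to it showed no call at 24 h. Of the 12 such genes 0 were higher and 0 lower by limma at an adjusted p of 0.05, with a median difference of 0.00, against 7.16% higher, 9.26% lower and a median of 0.04 over the 14805 genes tested. SERBP1, the closest relative, differed by 0.22 and 0.12 on its probes (adjusted p 0.166 and 0.492). At 48 h FXR1, an RNA-binding protein of the fragile X family, rose by 0.67 (adjusted p = 0.0134) and SRSF9, a splicing factor, fell by 1.12 (adjusted p = 0.0117), while the other 10 genes did not pass.

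Genes of hyaluronan, the matrix sugar for which HABP4 is named, gave 1 higher (6.25%) and 3 lower (18.8%) of 16 tested at 24 h, with a median of -0.09, against 7.16% and 9.26% over all genes. HAS1, an enzyme that makes hyaluronan, fell on all 3 probes, with differences of -1.53, -1.64 and -1.67 (adjusted p 0.000626, 0.000478 and 0.000204). HMMR, a hyaluronan receptor that also acts at the mitotic spindle, fell by 1.09 (adjusted p = 0.000789), and CD44, the main surface receptor, fell by 0.58 (adjusted p = 0.00721). CEMIP2, which breaks hyaluronan down, rose by 1.10 and 0.99 (adjusted p 0.00106 and 0.00186). At 48 h the differences ran from -3.81 to -3.60 for HAS1 and were -2.30 for HMMR, -2.12 for CD44, and 1.46 and 1.48 for CEMIP2.

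Of the 31 other genes with a TTC symbol that were tested, 3 rose (9.68%) and 1 fell (3.23%) at 24 h, with a median of 0.09, against 7.16% and 9.26% over all genes. These genes share the repeat and not a function. TTC12 rose by 0.62 (adjusted p = 0.0257) on one probe and differed by 0.39 (adjusted p = 0.0858) on the other, TTC9C rose by 0.49 (adjusted p = 0.0121) and TTC27 by 0.41 (adjusted p = 0.0178). TTC7B fell by 0.72 (adjusted p = 0.00291). The calls of TTC12 and TTC27 were lost without any 1 of the siControl arrays (adjusted p up to 0.0928), that of TTC27 in 4 of 16 alternatives in all and that of TTC12 in 9, among them those without siRND3 replicate 1 or 3, and that of TTC9C without siControl replicate 1 or 3 (up to 0.0596).

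Among other enzymes that methylate small molecules, 0 of 8 tested were higher and 2 lower (25%) at 24 h, with a median of -0.14, against 7.16% and 9.26% over all genes. TPMT, which methylates thiopurines, fell by 1.11 (adjusted p = 0.000884), with a difference of -2.88 at 48 h (adjusted p = 0.000285). NNMT, which methylates nicotinamide and is a close relative of INMT, fell by 0.49 (adjusted p = 0.0132), with a difference of -0.94 at 48 h (adjusted p = 0.00550). HNMT, GNMT and AS3MT, which act on histamine, glycine and arsenic, did not pass the threshold at 24 h, and PNMT was too dim to be tested. The NNMT call was lost without siControl replicate 2 or 3 (adjusted p up to 0.0662).

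In the methionine cycle, which makes and restores S-adenosylmethionine, 1 of 11 genes tested was higher (9.09%) and 4 were lower (36.4%) at 24 h. Over all genes these shares were 7.16% and 9.26%. The median difference of the list was -0.31 at 24 h but -0.07 at 48 h. With any 1 array at 24 h left out, only 2 to 3 of its genes were lower. BHMT2, which remakes methionine from homocysteine, fell by 1.62 (adjusted p = 0.00105) and AHCYL2, a relative of the enzyme that clears S-adenosylhomocysteine, fell by 1.23 (adjusted p = 0.000491). CBS, which draws homocysteine out of the cycle, fell by 0.49 (adjusted p = 0.0192). MTR, methionine synthase, rose by 0.70 (adjusted p = 0.00548) on its dimmest probe, while the other two differed by 0.28 and 0.23 (adjusted p 0.163 and 0.140). That MTR probe did not pass with normexp correction or in the deposited values (adjusted p up to 0.267) and CBS did not without any 1 of the siControl arrays (up to 0.0800).

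Of 12 genes tested that handle tryptophan and tryptamine, the source of the substrate of INMT, 0 were higher and 2 lower (16.7%) at 24 h, with a median of -0.01, against 7.16% and 9.26% over all genes. MAOA, the monoamine oxidase that breaks down tryptamine and serotonin, fell by 1.12 (adjusted p = 0.00113). KYNU, a kynureninase, fell by 0.73 (adjusted p = 0.0170), a call lost without siControl replicate 1 or 3 or siRND3 replicate 2 (adjusted p up to 0.0679). DDC, which makes tryptamine from tryptophan, and TPH1 were too dim to be tested, and IDO1 differed by 0.02 (adjusted p = 0.949).

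The genes most like each member over the 8 arrays were found among 14136 genes well above background on all arrays, by Pearson correlation of 1 probe per gene, as a description. The 8 arrays share 1 slide and fall into the same groups for every gene, and 295 genes had an r above 0.95 with HABP4, 50 with TTC33 and 170 with the brighter INMT probe. CHTF18, SMIM29, HSDL2, DPF1 and RPIA came closest to HABP4 (r from 0.991 to 0.993), with HSDL2 at 1.03 and RPIA at 0.99 showing the wider differences of these at 24 h. FAM133B, ZNF462, OGA, RBM5 and GOLGA7 came closest to TTC33 (r from 0.979 to 0.992), with differences at 24 h of 0.20 to 0.58. IL36B, F3, ST3GAL5, RAB15 and PTPRE came closest to the brighter INMT probe (r from 0.991 to 0.997). F3, tissue factor, which starts blood coagulation, changed with time by 0.65 in siControl and by -0.70 in siRND3 cells, a smaller swing than that of INMT. All 5 had a positive change in siControl and a negative one in siRND3 cells. They were picked for likeness to a probe chosen for this pattern, so nothing is read from these signs.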

How the data were processed

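Total RNA of U87 cells was hybridised to 8 human Agilent arrays of 1 colour. Per the labels RNA was labelled with a low-input amplification kit, and Agilent Feature Extraction 10.7.3.1 was named in the submitters' processing notes. The scanner output that the authors deposited gives linear spot intensity, from which the software had removed background. A second deposited table gives log2 signals, quantile-normalised according to the authors' methods. Its rank order within each array was that of the spot median signal (Spearman 1.0), without background removal. All its columns belonged to these samples.

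For the values reported, the processed intensity of all 8 arrays was put on the log2 scale and quantile-normalised, without 4259 control spots of 62976. Outlier spots (0.364% to 0.530% per array) were left out after this normalisation. Spots of a probe were averaged. No spot was saturated. A probe was well above background on an array when at least 50% of its spots were so marked, and 28759 probes that were so on all 3 arrays of a group at 24 h were tested. Probes were named by transcript accession through RefSeq (GRCh38.p14), which matched 25422 of 42405 probes. The array was annotated on an older build, so no array coordinates are given. The number of arrays limits the precision.

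Groups and replicate numbers came from the labels. limma 3.58.1 in R 4.3.3 was fitted on the 6 arrays at 24 h, and with 4 groups on all 8 arrays for 48 h, with p-values adjusted by Benjamini-Hochberg across the tested probes, two-sided, at a threshold of 0.05. The fits were also run on simulated data with the same spread on all arrays, which cannot test that assumption for the single arrays at 48 h. A gene counted as higher or lower when at least 1 probe passed and none passed the other way. The members, the gene lists and the tests were chosen with earlier results of these data known. Named were all probes of the members, all neighbours tested (the 3 nearest genes with a probe on each side), every list gene called at 24 h up to 5 each way (1 is counted but not reported here), the 5 genes most correlated with each member probe, up to 5 time-opposed genes each way, the next 3 genes outside the rule for risers, and genes of the lists without a call as examples chosen after their values were seen. A protein comparison with SERBP1, NNMT and PNMT was planned, but protein sequences were not used here. Alternatives were scaling to the 75th percentile, normexp with an offset of 50, the deposited log2 values, other filters, normalisation over 6 arrays, SAM, the replicate number as a block, treatment and time as terms over 8 arrays, array weights, and each 24 h array left out.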

Additional observations from a re-analysis of the deposited data

Results flagged for a closer look

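On the INMT probe A_33_P3347291 the difference between treatments at 48 h less that at 24 h was -3.61 on the log2 scale as measured, with all siControl changes over time positive and all siRND3 changes negative. The siRND3 array at 48 h was not well above background, so this number is not a measured size. It was not tested, since INMT was chosen for it.

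The effects at 48 h and 24 h also differed by a test of the difference itself, in the limma model with 4 groups, for 11 further probes of the listed and neighbouring genes. In this test 2.73% of all probes passed. The later effect less the earlier one was -2.06, -2.17 and -2.05 for the 3 probes of HAS1 (adjusted p 0.0186, 0.0165 and 0.0123), -1.77 for TPMT (adjusted p = 0.0165), -1.54 for CD44 (adjusted p = 0.0181), -1.21 for HMMR (adjusted p = 0.0272), -1.41 for the AQP1 probe A_23_P372834 (adjusted p = 0.0384) and -0.84 for TTC7B (adjusted p = 0.0476). These genes were lower at both times. For 3 genes that did not pass the threshold at 24 h it was 1.53 for MAT1A, which makes S-adenosylmethionine in liver (adjusted p = 0.0370), 0.80 for TTC32 (adjusted p = 0.0483), and -0.95 for PEMT, which methylates phosphatidylethanolamine (adjusted p = 0.0384).

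Every one of these calls rests on 1 array per treatment at 48 h, and every one was lost without siControl replicate 1 (adjusted p from 0.0610 to 0.125). Leaving out siControl replicate 2 or 3 ended them too, except for HAS1 probe A_23_P27400 with either and HAS1 probe A_33_P3295203 without replicate 2. TTC7B, TTC32, MAT1A and PEMT were lost without any 1 of the siRND3 arrays, AQP1 without siRND3 replicate 1 or 3, and HMMR without siRND3 replicate 1 (adjusted p up to 0.0805). MAT1A was lost in 10 of 11 alternatives, and its value was 0.25 with normexp correction. TTC32 was also lost with scaling to the 75th percentile, and AQP1 without the filter on dim probes.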

How the results depend on the processing

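No difference between treatments on a member probe changed direction under any alternative. The same held for calls of list and neighbour genes at 24 h and for the flagged differences between times. Differences of other genes that were not called were not followed. The changes of TTC33 with time, which were within the spread of the arrays, lay on both sides of 0, from -0.18 to 0.18 in siControl and from -0.06 to 0.18 in siRND3 cells. With scaling to the 75th percentile the fixed lists held 8 genes higher at 24 h, against 5, and 3 probes fell with time in siControl and rose in siRND3 cells. With normexp correction the log2 difference at 24 h was 0.42 for TTC33, 1.89 for HABP4 and -0.55 for INMT, that of INMT at 48 h was -2.13, its changes with time were 1.24 in siControl and -0.33 in siRND3 cells, and 2 and 0 probes were time-opposed. With the deposited log2 values these were 0.67 for TTC33 and -0.79 for INMT at 24 h, -2.85 at 48 h, 1.51 and -0.54 with time, and 2 and 0 probes. Without a filter on dim probes, which adds probes near background, TTC33 at 48 h kept its 1.62 with an adjusted p of 0.0504, neighbours gave 1 probe higher and 3 lower, and 67 and 59 probes were time-opposed. With the filter on all 6 arrays these were 5 and 1. With terms for treatment and time over the 8 arrays, which averages both times, 2273 probes were higher, HABP4 differed by 2.27 and INMT by -2.43, and 9 list genes were higher. With the replicate block 589 probes were higher and 1062 lower, 3 list genes and 1 neighbour probe were higher, and TTC12, TTC27, CBS, NNMT, PTGER4 and the second ZNF367 probe were among the calls lost. Deviations of arrays with the same replicate number correlated at 0.00, -0.01 and 0.13, so the numbers were not taken to pair the arrays. The replicate number was also the slide column.

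Leaving out 1 array at a time gave 442 to 1058 probes higher and 901 to 1479 lower at 24 h, against 1515 and 1835, with 442 and 901 without siControl replicate 3. It gave 2 to 5 list genes higher, 1 to 2 neighbour probes higher and 2 to 6 lower, and 9 to 15 and 5 to 10 time-opposed probes. The differences at 24 h were then 1.97 to 2.05 for HABP4, 1.41 to 1.73 for TTC33 and -1.66 to -1.38 for INMT. The cause of these shifts was not tested. Single arrays at 48 h, and signals of TTC33 and INMT close to the subtracted background, limit what was measured.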

Other observations

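In the direction opposite to INMT, 5 probes fell by at least 1 in siControl and rose by at least 1 in siRND3 cells from 24 h to 48 h, of which 3 had a gene name. They were LY9, a surface receptor of lymphocytes, at -1.20 and 1.35, UGT2B4, a glucuronosyltransferase, at -2.26 and 1.11, and LY6G6E at -1.09 and 1.45. Of the 5 probes, 1 was well above background on both arrays at 48 h, that of UGT2B4. These values rest on 1 array per treatment at 48 h and were not tested.

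The genes most like the dimmer INMT probe over the 8 arrays were UBAP1L, AARD, DDI2, KRR1 and H2BC17 (r from 0.953 to 0.984), and 7 genes had an r above 0.95 with it. None of these is among the 5 closest to the brighter INMT probe.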
